A study of Mus musculus with 10 samples.

Results

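Plasminogen activation and coagulation genes were described in mouse embryonic fibroblasts that lacked a subunit of the SWI/SNF chromatin remodelling complex. The 9 genes were chosen by symbol, from a list drawn up with earlier results of these same arrays known, and no threshold on a measured value was applied. Every probe set whose annotated symbol was Serpinb2, Serpine2, Plat, Plau, Plaur, F3, F5, Tfpi2 or Thbd was taken, which gave 10 of the 22690 probe sets on the array. These covered 8 of the 9 genes, and the intensity of Serpine2, which encodes a protease inhibitor, was not analysed here. Because the genes were picked with the intensities of the same 3 groups in view, the changes and p-values below describe these arrays and are not independent evidence.

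RNA was hybridised to 10 one-colour Affymetrix arrays. Of these, 3 carried wild type (WT) cells, 3 carried Snf5-/- cells and 4 carried Brg1-/- cells. All were primary fibroblasts, connective tissue cells grown from E13.5 embryos on a mixed C57BL/6 and 129 background. Per the labels' protocols, cells of all 3 groups, WT included, received Cre recombinase by retrovirus and were kept under puromycin selection (2.5 ug/ml). Nothing in the labels states that the replicates of a group were grown from different embryos or cultures, so p-values reflect only array-to-array spread, which may be technical. Snf5 (gene Smarcb1) is a core subunit of SWI/SNF, and Brg1 (gene Smarca4) is an ATPase that drives its remodelling. Both mutants were compared with the same 3 WT arrays, so the comparisons with WT share those samples.

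Plasminogen activation turns the circulating zymogen plasminogen into plasmin, a protease that dissolves fibrin and also cleaves matrix around cells. The activators are tissue-type (Plat) and urokinase-type (Plau) plasminogen activator; Plaur holds urokinase at the cell surface, and Serpinb2 and Serpine2 belong to the serpin family of inhibitors. Coagulation in tissue starts when tissue factor (F3) meets its plasma partner, and factor V (F5) is a cofactor further down the cascade. Tfpi2 is a Kunitz-type inhibitor found in the extracellular matrix that acts on plasmin among other proteases, and thrombomodulin (Thbd) turns thrombin towards activation of the anticoagulant protein C. Fibroblasts are known to make several of these proteins and to use them in wound repair and migration.

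Promoter sequence is shown for the 4 genes whose windows held the motif of the AP-1 transcription factors, which are known for binding at wound and growth factor response genes. The windows run from 250 bases before to 50 bases after a RefSeq transcript start on GRCm38.p6, on the strand of the gene, with each match to TGANTCA in capitals. They lie at chr1:107511173-107511472 (plus strand) for Serpinb2, chr7:24462233-24462532 (plus strand) for Plaur, chr3:121723287-121723586 (plus strand) for F3 and chr6:3968326-3968625 (minus strand) for Tfpi2.
Serpinb2: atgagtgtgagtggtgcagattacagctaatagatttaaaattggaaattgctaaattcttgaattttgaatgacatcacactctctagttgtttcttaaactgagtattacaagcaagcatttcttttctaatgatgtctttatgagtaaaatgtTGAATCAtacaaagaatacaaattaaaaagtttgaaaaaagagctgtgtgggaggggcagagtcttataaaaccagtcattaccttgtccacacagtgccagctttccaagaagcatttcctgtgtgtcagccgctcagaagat
Plaur: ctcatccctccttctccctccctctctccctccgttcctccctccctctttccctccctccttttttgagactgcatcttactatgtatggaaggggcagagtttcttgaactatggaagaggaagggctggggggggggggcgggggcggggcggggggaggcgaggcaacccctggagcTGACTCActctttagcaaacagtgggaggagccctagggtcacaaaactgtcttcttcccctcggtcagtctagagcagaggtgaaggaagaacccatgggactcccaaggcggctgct
F3: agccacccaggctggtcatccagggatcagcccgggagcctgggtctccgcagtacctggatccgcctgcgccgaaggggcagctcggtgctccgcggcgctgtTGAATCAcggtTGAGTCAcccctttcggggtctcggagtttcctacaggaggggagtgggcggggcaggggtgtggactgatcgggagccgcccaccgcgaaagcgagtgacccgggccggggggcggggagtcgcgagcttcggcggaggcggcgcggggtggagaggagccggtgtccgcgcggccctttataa
Tfpi2: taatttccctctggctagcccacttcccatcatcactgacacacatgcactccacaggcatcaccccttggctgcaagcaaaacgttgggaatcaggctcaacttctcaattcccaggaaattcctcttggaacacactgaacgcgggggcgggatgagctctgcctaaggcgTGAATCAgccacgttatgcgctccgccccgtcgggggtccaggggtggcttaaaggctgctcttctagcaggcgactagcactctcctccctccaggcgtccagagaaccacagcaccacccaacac

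The promoter table held 6 of the 9 genes in 9 windows of 300 bases, as Serpinb2 had several overlapping windows and Tfpi2 had 3. AP-1 matches, sought on both strands, were found in 4 of these 6 genes and in 5 windows. The overlapping Serpinb2 windows held the same match, which is counted in each. Counting back from the transcript start, the match began at -94 in the printed window of Serpinb2, at -69 in Plaur, at -146 and -135 in F3, and at -77 in Tfpi2. The other Tfpi2 windows, at starts further upstream in the gene, held no match, and neither did the windows of F5 and Serpine2. Of all 32851 promoters in the table, 7.81% held TGANTCA. This is a share of single windows, so it is not on the same footing as a count of genes. The TATA box letters TATAAA occurred at -29 in Serpinb2, at 44 after the start in F3 and in 13.6% of all promoters, and the GC box letters GGGCGG, present in Plaur, F3, F5, Serpine2 and 1 Tfpi2 window, occurred in 35.7%. No member window held the cAMP response element TGACGTCA or the E-box CACGTG, which were found in 1.79% and 7.15% of all promoters. A match is a run of letters only, and no binding was measured here.

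Values are given first as deposited, as MAS5 intensity on a linear scale. Median intensity per array ranged from 146 to 234 and was lower in every mutant array than in every WT array, so changes were computed as log2 of quantile-normalized intensities with limma. Adjusted p-values are Benjamini-Hochberg values over 14506 tested probe sets, with a threshold of 0.05. In fits without the filter on low values they are taken over all probe sets other than controls. Other settings that changed the probe sets tested were adjusted over those tested there. The median log2 change of all tested probe sets was -0.01 in Snf5-/- and 0 in Brg1-/- cells on the quantile-normalized scale, and -0.3 and -0.47 on the deposited scale. The targeted genes were low in their own groups: Smarcb1 intensity was 951 ± 147 (SD, n = 3) in WT and 297 ± 29.8 (SD, n = 3) in Snf5-/- cells, and Smarca4 was 2849 ± 853 (SD, n = 3) in WT and 450 ± 105 (SD, n = 4) in Brg1-/- cells. A second, dimmer Smarcb1 probe set was at 138 ± 93.3 (SD, n = 3) in WT and 56.7 ± 32.9 (SD, n = 3) in Snf5-/- cells. Its arrays overlapped between those groups. A second Smarca4 probe set was at 1049 ± 99.5 (SD, n = 3) in WT and 217 ± 58.5 (SD, n = 4) in Brg1-/- cells. Whether these probes lie in the deleted part is not known here, so they may not check the labels. A background level, the highest of 27 bacterial control probe sets, ranged from 26.7 to 57.4 over the arrays.

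In Snf5-/- cells 3 of the 7 tested member probe sets fell against WT and 0 rose, and 4 did not pass. Among all tested probe sets 8.0% fell and 8.72% rose in that comparison. In Brg1-/- cells 6 of 7 fell and 1 rose, where 12.2% of all tested probe sets fell and 13% rose. On the deposited scale 5 members fell in Snf5-/- and 6 in Brg1-/- cells and 0 rose in either, beside 17.7% lower and 2.81% higher of all probe sets in Snf5-/- and 42.8% lower and 3.21% higher in Brg1-/- cells. Nothing about the genes as a set is read from these counts, since the genes were picked with these groups in view. Of the tested members, Serpinb2 and the tested F5 probe set passed the filter on low values only through the WT arrays, and Tfpi2 only through WT and Snf5-/- replicate 2. The other 3 probe sets, both of Plau and the second of F5, did not pass it.

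**Figure D1:**
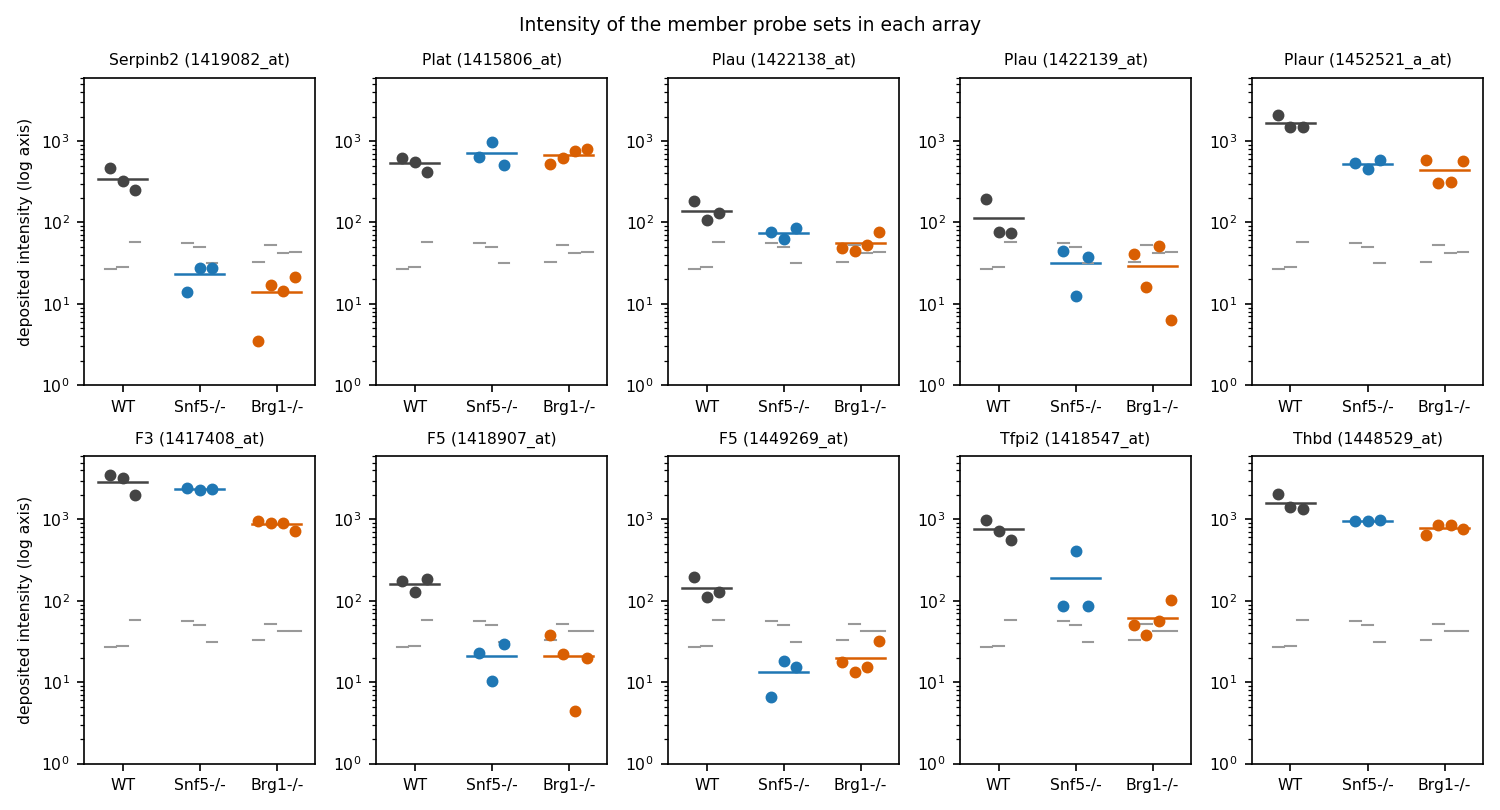
Deposited MAS5 intensity (log axis) of the 10 member probe sets in each array, by group. Points are arrays, long lines are group means and short grey lines are the background level of each array; Serpinb2 and both F5 probe sets were above background in all WT arrays and near or below it in the mutants.

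Of the plasminogen activators, Plat rose in Brg1-/- cells except on the deposited scale without centring, and Plau did not pass in either mutant. Plat (chromosome 8, 22757722 to 22782848), the activator best known for dissolving clots, had intensities of 626, 560 and 422 in WT, 644, 982 and 501 in Snf5-/-, and 518, 624, 748 and 804 in Brg1-/- arrays. The groups overlapped on the deposited scale, and Snf5-/- replicate 2 was the highest. Plat rose in Brg1-/- cells by a log2 change of 0.81 ± 0.24 (SE; limma adjusted p = 0.0275). On the deposited scale that change was 0.33, with an adjusted p of 0.253, and the call was also lost on leaving out WT replicate 1 or 3 or Brg1-/- replicate 2, 3 or 4 (highest adjusted p = 0.0971, without WT replicate 3). In Snf5-/- cells the change of 0.66 ± 0.26 did not pass (adjusted p = 0.102), but it was 0.34 (adjusted p = 0.287) without replicate 2 and 0.96, a pass (adjusted p = 0.0149), without replicate 3.

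Plau (chromosome 14, 20836662 to 20843388), the urokinase-type activator, was dim in all groups. Its brighter probe set read 182, 107 and 131 in WT, 75.3, 62 and 84.6 in Snf5-/-, and 47.9, 44, 53.3 and 75.4 in Brg1-/- arrays. Every mutant array was below every WT array. Its other probe set read 193, 76.3 and 74.7 in WT, 12.5 to 44 in Snf5-/- and 6.4 to 51.8 in Brg1-/- arrays, where 2 arrays of each mutant were at or below background. In a fit without the filter neither probe set passed in either mutant, with log2 changes of -0.64 (adjusted p = 0.241) and -1.65 (adjusted p = 0.256) in Snf5-/- and -0.92 (adjusted p = 0.0501) and -1.82 (adjusted p = 0.141) in Brg1-/- cells.

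Plaur (chromosome 7, 24460937 to 24475970), the urokinase receptor whose AP-1 match is printed above, had intensities of 2069, 1482 and 1477 in WT, 536, 456 and 593 in Snf5-/-, and 592, 301, 312 and 566 in Brg1-/- arrays. The lowest WT array was far above the highest mutant array. Plaur fell in both mutants, with log2 changes of -1.33 ± 0.25 (SE; limma adjusted p = 0.00427) in Snf5-/- and -1.47 ± 0.23 (adjusted p = 0.000925) in Brg1-/- cells, or 2.52-fold and 2.78-fold lower. Both calls held when any single array was left out.

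The serpin Serpinb2 (chromosome 1, 107500892 to 107525600), plasminogen activator inhibitor type 2, stood far above background in WT arrays, with intensities of 463, 322 and 250. It read 14.1, 27.2 and 27.7 in Snf5-/- arrays and 3.5, 16.8, 14.3 and 21.1 in Brg1-/- arrays. All 7 mutant arrays were at or below background, so only a bound can be given. Serpinb2 was at least 6.28-fold lower in Snf5-/- and at least 5.9-fold lower in Brg1-/- cells. The fitted log2 changes were -3.7 (limma adjusted p = 0.00935) in Snf5-/- and -4.44 (adjusted p = 0.00136) in Brg1-/- cells. These changes rest on mutant values at or below background, and their p-values do not test the bounds. The Snf5-/- call was lost on leaving out any single WT array, with adjusted p-values of 0.0667, 0.0646 and 0.0531; the Brg1-/- call was kept in each case.

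Tfpi2 (chromosome 6, 3962589 to 3988978), the matrix protease inhibitor, had intensities of 981, 722 and 562 in WT, 85.2, 408 and 85.9 in Snf5-/-, and 50.2, 37.7, 56.7 and 101 in Brg1-/- arrays. Every mutant array was below every WT array, but Snf5-/- replicate 2 lay far above the other arrays of its group. Tfpi2 fell in Brg1-/- cells by a log2 change of -3.23 ± 0.49 (SE; limma adjusted p = 0.000671), or 9.37-fold; Brg1-/- replicate 2 was below background, and with the background level in its place the fold was 8.65. In Snf5-/- cells it fell by -2.04 ± 0.52 (adjusted p = 0.0213), and by -2.83 (adjusted p = 0.000207) without replicate 2. That Snf5-/- call was lost on leaving out any single WT array or Snf5-/- replicate 1 or 3, with a highest adjusted p of 0.0784.

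Snf5-/- replicate 2 also stood apart in leukocyte markers. The summed quantile-normalized intensity of 14 macrophage and leukocyte markers was 12583 in it, against 2805 to 6714 in the other arrays, and 1 of the 14 was at or below background there. The part of these cells in its Tfpi2 and Plat values was not tested. In bulk samples, fewer cells of a type and less RNA per cell cannot be told apart.

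Tissue factor, F3 (chromosome 3, 121723537 to 121735052), the cell-surface starter of coagulation, separated the mutants from each other. Its intensities were 3509, 3270 and 1982 in WT, 2445, 2302 and 2400 in Snf5-/-, and 947, 900, 903 and 719 in Brg1-/- arrays. The Snf5-/- arrays lay within the WT range, and every Brg1-/- array lay below all arrays of the other groups. F3 fell in Brg1-/- cells by a log2 change of -1.14 ± 0.15 (SE; limma adjusted p = 0.000257), or 2.21-fold. In Snf5-/- cells its change was 0.12 ± 0.16 (adjusted p = 0.67), and on the deposited scale the direction turned, at -0.25.

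Factor V, F5 (chromosome 1, 164151835 to 164220277), a plasma cofactor made mainly in liver, was measured by a pair of probe sets. The tested one read 174, 127 and 188 in WT, 22.8, 10.3 and 29.1 in Snf5-/-, and 38.3, 22.2, 4.4 and 19.8 in Brg1-/- arrays. It was at or below background in 3 of 3 Snf5-/- and 3 of 4 Brg1-/- arrays. With the background level in place of lower values, it was 2.76-fold lower in Brg1-/- cells. The fitted log2 change of -2.87 ± 0.89 (SE; limma adjusted p = 0.0347) rests on values below background, and the call was lost on leaving out any single WT array or Brg1-/- replicate 4 (highest adjusted p = 0.154). In Snf5-/- cells the tested probe set was at least 3.05-fold lower. The fitted log2 change there was -2.86 ± 0.96 and rests on Snf5-/- values at or below background. That change did not pass (limma adjusted p = 0.0606) but did on the deposited scale (-3.08, adjusted p = 0.045). These p-values do not test the bound. The second probe set read 194, 112 and 127 in WT, 6.6, 18.2 and 15.4 in Snf5-/-, and a mean of 19.6 ± 8.27 (SD, n = 4) with a highest value of 31.7 in Brg1-/- arrays. All of its mutant arrays were at or below background. This second probe set was at least 2.66-fold lower in Snf5-/- and at least 2.5-fold lower in Brg1-/- cells. Fitted without the filter, its log2 changes were -3.29 (limma adjusted p = 0.00235) in Snf5-/- and -2.49 (adjusted p = 0.00482) in Brg1-/- cells. They too rest on mutant values at or below background, and their p-values do not test the bounds.

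Thrombomodulin, Thbd (chromosome 2, 148404471 to 148408188), the anticoagulant thrombin receptor, had intensities of 2057, 1431 and 1325 in WT, 953, 958 and 975 in Snf5-/-, and 645, 844, 865 and 760 in Brg1-/- arrays. Every mutant array was below every WT array. Thbd fell in Brg1-/- cells by a log2 change of -0.49 ± 0.12 (SE; limma adjusted p = 0.00931). In Snf5-/- cells the change of -0.39 ± 0.12 missed the threshold (adjusted p = 0.0512), whereas the deposited scale gave -0.71 and a pass (adjusted p = 0.0201).

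**Figure D2:**
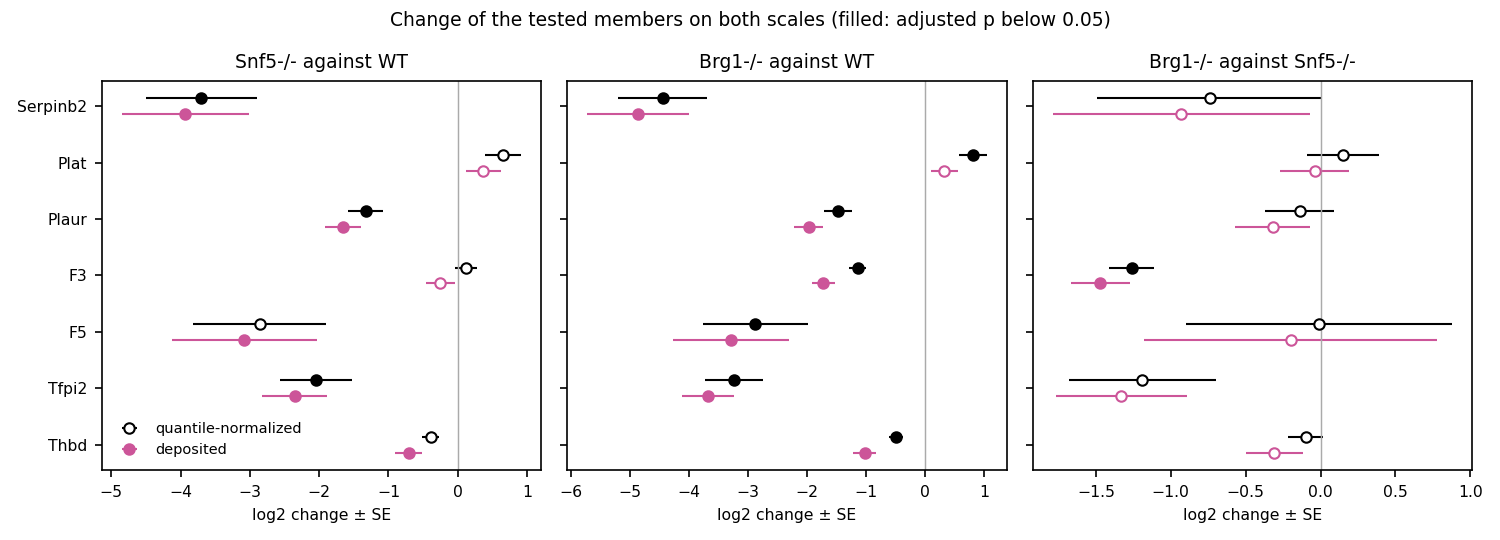
Log2 change ± SE of the 7 tested members in the 3 comparisons, on the quantile-normalized (black) and the deposited (pink) scale, filled where adjusted p was below 0.05. Plaur was lower in both mutants at -1.33 and -1.47, and F3 was lower in Brg1-/- cells against both other groups.

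Set directly against Snf5-/- cells, Brg1-/- cells differed in 1 of the 7 tested members, where 1.92% of all tested probe sets were lower and 2.10% higher. That member was F3, which was lower in Brg1-/- cells by a log2 change of -1.26 ± 0.15 (SE; limma adjusted p = 0.00218) or 2.4-fold, and the call was kept when any single array was left out. Tfpi2 differed by -1.19 ± 0.49 and did not pass (adjusted p = 0.182), and Snf5-/- replicate 2 was left in; without that array the difference was -0.41. Plaur differed by -0.14 ± 0.23, Thbd by -0.1 ± 0.12 and Plat by 0.15 ± 0.24, none of which passed. Serpinb2 (-0.74 ± 0.75) and F5 (-0.01 ± 0.89) were at or below background in most mutant arrays, so their difference between mutants was not measurable.

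Other genes of both pathways were taken from a list of 50, of which 45 had a probe set and 21 were tested. In Snf5-/- cells 4 fell, 3 rose and 14 did not pass, with a median log2 change of 0.06 against -0.01 over all probe sets. In Brg1-/- cells 8 fell, 4 rose and 9 did not pass, with a median of -0.06 against 0. The deposited scale gave 5 lower and 1 higher in Snf5-/- and 12 lower and 0 higher in Brg1-/- cells. There 17.7% and 42.8% of all tested probe sets were lower, and 2.81% and 3.21% were higher. Over all probe sets on the quantile-normalized scale, 8.0% were lower and 8.72% higher in Snf5-/- cells, and 12.2% lower and 13% higher in Brg1-/- cells.

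Among regulators of coagulation, Vkorc1, which recycles vitamin K for the activation of clotting factors, rose by 1.34 ± 0.14 (SE; limma adjusted p = 0.000116) in Snf5-/- and by 1.07 ± 0.13 (adjusted p = 0.000169) in Brg1-/- cells. Its intensities were 1870, 1327 and 1184 in WT, 2716, 2402 and 3538 in Snf5-/-, and 1852, 1874, 1825 and 2554 in Brg1-/- arrays. All Snf5-/- arrays exceeded WT, whereas Brg1-/- overlapped it as deposited, and there its change was 0.49 and did not pass (adjusted p = 0.0527). Pros1, the protein C cofactor protein S, rose by 0.78 ± 0.21 in Snf5-/- and 0.82 ± 0.2 in Brg1-/- cells, but passed in neither on the deposited scale (adjusted p = 0.184 and 0.299). Its Snf5-/- call was also lost without any single WT array or Snf5-/- replicate 3 (highest adjusted p = 0.0821) and with only the groups compared (0.0524). Tfpi, the inhibitor of the tissue factor pathway, fell by -0.48 ± 0.13 and -0.57 ± 0.12, with the Snf5-/- call lost without WT replicate 2 or 3 or Snf5-/- replicate 1 or 2 (highest adjusted p = 0.105) and with only the groups compared (0.0517). A further Tfpi probe set fell in Snf5-/- (-0.98, limma adjusted p = 0.00271) and in Brg1-/- cells (-0.8, adjusted p = 0.00373). Yet another passed in Brg1-/- (-0.73, adjusted p = 0.00379) but not in Snf5-/- cells (-0.3, adjusted p = 0.222). Thbs1, the matrix protein thrombospondin 1, fell by -0.57 ± 0.12 and -0.45 ± 0.11; a second Thbs1 probe set passed in Snf5-/- (-0.72, adjusted p = 0.0235) but not in Brg1-/- cells (-0.32, adjusted p = 0.211).

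Procr, the endothelial protein C receptor that works beside thrombomodulin, had intensities of 855, 531 and 628 in WT, 431, 610 and 539 in Snf5-/-, and 318, 194, 281 and 298 in Brg1-/- arrays. Brg1-/- arrays lay below all others. Procr fell in Brg1-/- cells by -0.84 ± 0.18 (SE; limma adjusted p = 0.00591) and differed from Snf5-/- cells by -0.8 ± 0.18 (adjusted p = 0.0356), the latter lost without WT replicate 3, Snf5-/- replicate 2 or Brg1-/- replicate 2 or 3 (highest adjusted p = 0.0951). That difference was also lost without the filter (adjusted p = 0.0501), without the intensity trend (0.0643) and with only the groups compared (0.0743). Its Snf5-/- change against WT was -0.04 ± 0.2.

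Of genes tied to protease uptake and inhibition, Vldlr, a receptor that clears protease and inhibitor complexes, fell by -0.79 ± 0.21 in Snf5-/- and -0.93 ± 0.2 in Brg1-/- cells. The Snf5-/- call was lost without WT replicate 1 or 3 or Snf5-/- replicate 3 (highest adjusted p = 0.116), and with only the groups compared (adjusted p = 0.0536). The serpin Serpinb6a fell by -0.56 ± 0.12 and -0.78 ± 0.11. Mcfd2, which helps carry factors V and VIII out of the endoplasmic reticulum with Lman1, fell by -0.61 ± 0.12 in Brg1-/- cells; in Snf5-/- cells a change of -0.32 ± 0.13 missed the threshold (adjusted p = 0.111), but passed on the deposited scale as it stood (-0.7, adjusted p = 0.00625) and median-centred (-0.44, adjusted p = 0.0347). Lman1 and the thrombin receptor F2r, named after their values were seen, rose in Brg1-/- cells by 0.39 ± 0.09 and 0.35 ± 0.1, with the direction turned on the deposited scale, at -0.17 and -0.29, and neither passed when it was median-centred (adjusted p = 0.175 and 0.64). The F2r call was also lost without WT replicate 2 or 3 or Brg1-/- replicate 2 or 3 (highest adjusted p = 0.101). In Snf5-/- cells Lman1 rose as well, by 0.39 ± 0.1 (limma adjusted p = 0.0177). That call was lost on the deposited scale (0.07, adjusted p = 0.82), median-centred (adjusted p = 0.102) and without WT replicate 2 or 3 (highest 0.0721). F2r changed by 0.29 ± 0.11 in Snf5-/- cells and did not pass (adjusted p = 0.084). Other probe sets of both genes did not pass. Also named after their values were seen, Lrp1 and S100a10 fell in Brg1-/- cells. The changes were -0.41 ± 0.12 (limma adjusted p = 0.0264) and -0.3 ± 0.09 (adjusted p = 0.0337). Both calls were lost without any single WT array or Brg1-/- replicate 3 (highest adjusted p = 0.107 and 0.127). A second S100a10 probe set did not pass (-0.01, adjusted p = 0.951). In Snf5-/- cells Lrp1 changed by -0.06 and S100a10 by 0.06, and neither passed.

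**Figure D3:**
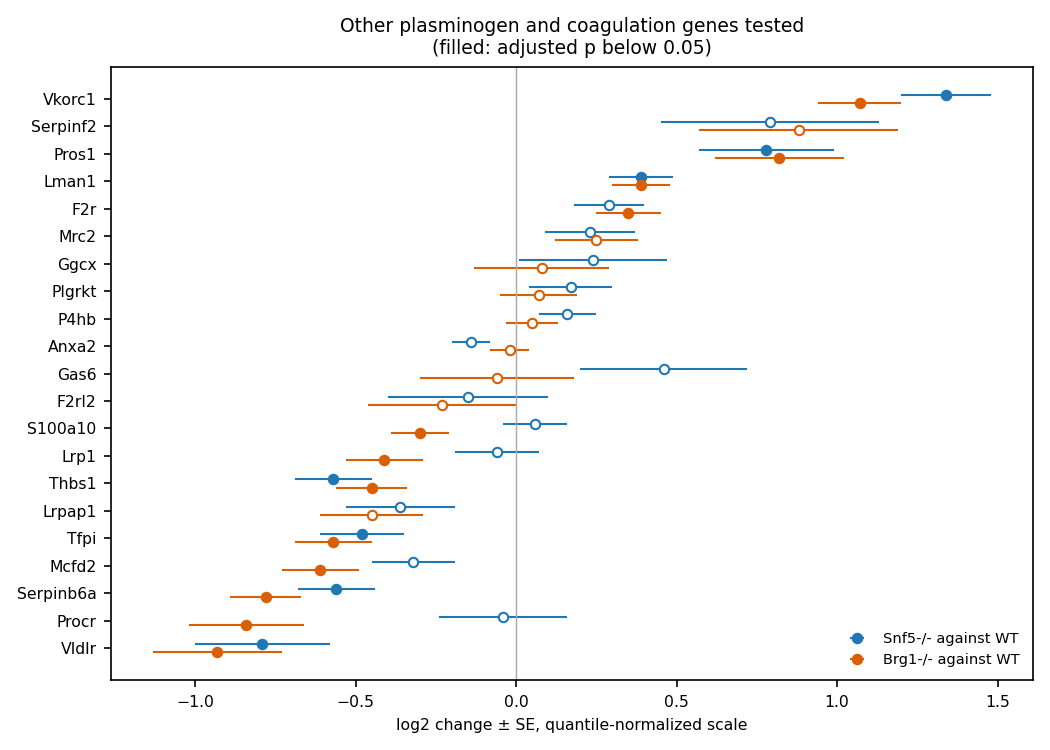
Log2 change ± SE, quantile-normalized, of the 21 tested genes of the plasminogen and coagulation list in Snf5-/- (blue) and Brg1-/- (orange) cells against WT, filled where adjusted p was below 0.05. Vkorc1 was the highest in both, at 1.34 and 1.07, and Procr was at -0.04 in Snf5-/- and -0.84 in Brg1-/- cells.

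Markers of other cell types were read in the same arrays. All 10 fibroblast markers were above background in every array, and their sum was 74912 to 80034 in WT, 97968 to 106509 in Snf5-/- and 71069 to 92654 in Brg1-/- arrays. Of the 10, 3 rose in Snf5-/- cells, 3 rose and 1 fell in Brg1-/- cells, and 3 were lower in Brg1-/- than in Snf5-/- cells. The part of this in the member values was not tested. Summed intensity of 10 mesothelial and epithelial markers was 1695 to 2182 in WT, 1059 to 1515 in Snf5-/- and 792 to 951 in Brg1-/- arrays, so it was lower in each mutant array, as Serpinb2, Plaur, Tfpi2, F5 and Thbd were. Of its 6 tested markers 3 fell in each mutant, and the epithelial Epcam and Cdh1 were at or below background in 10 and 9 of 10 arrays. The keratins Krt8, Krt18 and Krt19 were above background in all 10 arrays. The part of such cells in the member values was not tested. Of 10 endothelial markers, which matter because Thbd and Procr are known from endothelium, Tie1 and Pecam1 were at or below background in 10 and 9 of 10 arrays, and the sum was 1414 to 1649 in WT, 1186 to 1410 in Snf5-/- and 1185 to 1362 in Brg1-/- arrays. Kdr, Eng and Egfl7 were above background in all 10 arrays, and of 4 tested endothelial markers 1 rose in Snf5-/- cells, and 2 fell and 1 rose in Brg1-/- cells. Their part was not tested. For 5 platelet markers, of 7 in the list, the sum was 1248 to 1722 in WT, 1003 to 1945 in Snf5-/- and 721 to 886 in Brg1-/- arrays. Of 4 tested platelet markers 0 fell in Snf5-/- and 1 fell in Brg1-/- cells, and 0 rose in either. Deposited intensity of Ppbp was 809 to 1008 in WT, 205 to 1454 in Snf5-/- and 106 to 178 in Brg1-/- arrays. In the same order, Itga2b was 364 to 380, 217 to 319 and 278 to 328. Pf4 was 251 to 495, 83.6 to 348 and 64 to 153. Gp1bb was 105 to 222, 79.3 to 160 and 82.1 to 166, so its groups overlapped. Gp9 was at or below background in 6 of 10 arrays. The part of platelet cells was likewise not tested.

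**Figure D4:**
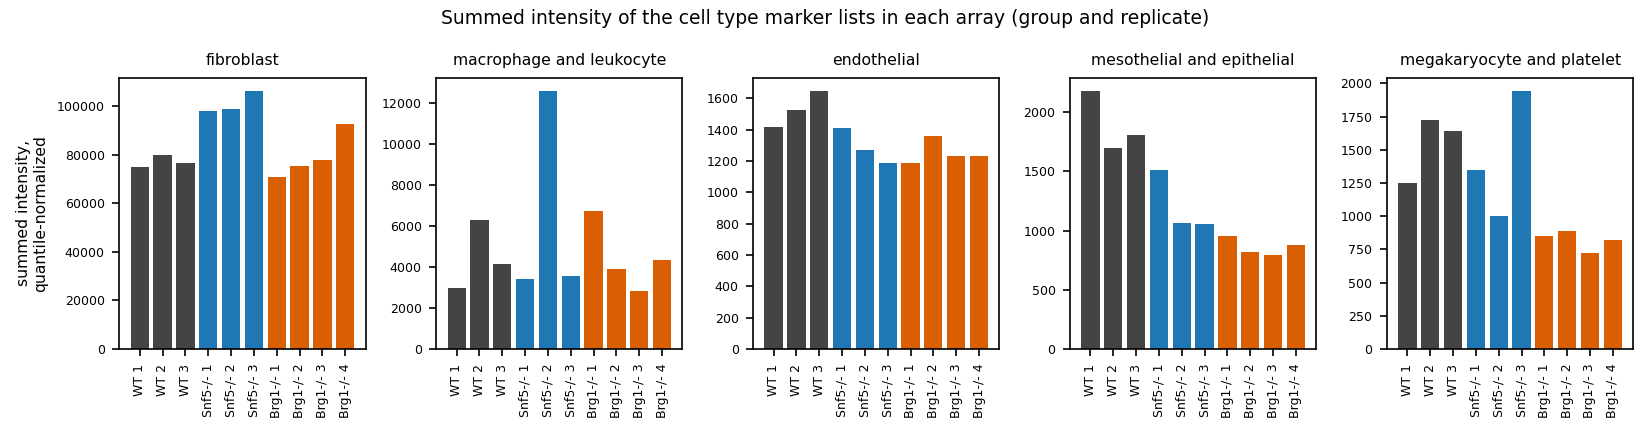
Summed quantile-normalized intensity of 5 cell type marker lists in each array (bars, from 0), by group and replicate. Snf5-/- replicate 2 had the highest macrophage and leukocyte sum, at 12583, and WT arrays had the highest mesothelial and epithelial sums.

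For each member, the gene most like it over the 10 arrays was found among 8390 candidates by Pearson correlation of quantile-normalized log2 values. It was Ctsk for Serpinb2 (r = 0.977), Pcx for Plat (r = 0.971), Wnk1 for Plau (r = 0.967) and Slc9a3r1 for Plaur (r = 0.979). It was Gtf3c1 for F3 (r = 0.96), Herc4 for F5 (r = 0.95), Igfbp7 for Tfpi2 (r = 0.983) and Spry2 for Thbd (r = 0.97). The arrays fall into the 3 genotypes, so the correlations include the differences between genotypes, and they are a description only. Serpinb2 was at or below background in every mutant array and F5 in most, so their correlations rest in part on such values.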

How the data were processed

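The authors deposited linear MAS5 intensity per probe set, as the submitters' processing notes name it. Version, scaling target and filters of MAS5 are not given in the sources used here. Their table held 22690 probe sets in 10 arrays. Probe sets were named from the platform annotation, and 64 controls were left out. Intensities were quantile-normalized (limma 3.58.1, R 4.3.3) and taken as log2 with no pseudocount. Testing was limited to the 14506 probe sets that reached the 40th percentile within an array in 3 or more arrays. limma fitted a mean for each of 3 groups (7 residual degrees of freedom), with eBayes and an intensity trend, and made 3 two-sided comparisons. Members that missed the filter come from the same fit without it. For other pathway genes the probe set of highest mean stood for the gene. The pathway genes named by rule were those passing, at most 6 of largest change per comparison. Others were named after their values were seen, and nearest genes were named by correlation. Where all arrays of a group were at or below background, a bound is given: the mean of the other group over, per array, the higher of background and the probe set's own value, on the quantile-normalized scale. The members, lists and rules were chosen with earlier results of these data known. The fit was tested on simulated data. The number of arrays limits the precision. Same-numbered replicates did not deviate together: 1 of 9 pairs had a correlation over 0.1 (-0.09 to 0.12), so the numbers were not treated as pairs. Alternatives were the deposited scale, the same scale median-centred, no filter or a stricter one (60th percentile), a pseudocount of 16, no intensity trend, only the groups compared, 1 probe set a gene, a replicate block, and leaving out each array.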

Additional observations from a re-analysis of the deposited data

Results flagged for a closer look

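The difference between the mutants passed the test for F3 and for Procr. F3 was lower in Brg1-/- than in Snf5-/- cells by a log2 difference of -1.26, with every Brg1-/- array below every Snf5-/- array. Procr was lower in Brg1-/- cells by -0.8, but that call was lost under 4 of the other settings tried and without any of 4 single arrays. Of 10 member probe sets, 0 had an array in Brg1-/- cells, the only group of 4, standing far from the others; groups of 3 were not examined for this.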

How the results depend on the processing

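Plaur in both mutants, and Serpinb2, F3, Tfpi2 and Thbd in Brg1-/- cells, kept direction and call under every alternative run, as did F3 between the mutants, except that Serpinb2, like F5 and Vldlr, did not pass the stricter filter and was not tested there. Changed members in Snf5-/- cells numbered 3, but 5 on the deposited scale and 5 without the filter. They numbered 4 with the pseudocount, with 1 probe set a gene, without the trend and with only the groups compared. On leaving out single arrays they numbered 1 to 4 (1 without each WT array). Leaving out single arrays gave 5 to 7 members in Brg1-/- cells and 1 between mutants. Pathway genes changed in Snf5-/- cells numbered 7, but 4 with only the groups compared and 3 to 8 on leaving out single arrays (4 and 3 without WT replicates 2 and 3). Between mutants 1 pathway gene changed, where 1.92% of all tested probe sets were lower and 2.10% higher. That count was 3 on the deposited scale, and 2 on the median-centred scale and with the stricter filter. It was 0 without the filter, without the trend and with only the groups compared, and 0 to 2 on leaving out single arrays. The cause was not tested.

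Some small changes turned direction, none of them past the threshold when turned. On the deposited scale, in Snf5-/- against WT, F3 was -0.25, S100a10 -0.3 (median-centred -0.03) and F2r -0.11. In Brg1-/- against WT, F2r was -0.29 and Lman1 -0.17. Between mutants, Plat was -0.04, F2r -0.19 (median-centred -0.04), Pros1 -0.18 (-0.03), Lman1 -0.24 (-0.1) and Thbs1 -0.07, and F5 was 0.09 with the pseudocount. Leaving out single arrays, Snf5-/- changes ran from -0.03 to 0.27 for F3, -0.01 to 0.1 for S100a10 and -0.21 to 0.07 for Procr. Between mutants they ran from -0.15 to 0.47 for Plat, -0.33 to 0.04 for Plaur, -0.45 to 0.65 for F5, 0 to 0.13 for F2r, -0.17 to 0.3 for Pros1 and -0.04 to 0.04 for Lman1.

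With the replicate block, 3, 6 and 1 members and 6, 13 and 1 pathway genes changed in Snf5-/-, in Brg1-/- and between mutants. Then F5 (adjusted p = 0.0838) and S100a10 (0.0693) in Brg1-/- and Vldlr (0.0518) in Snf5-/- cells were not called. The gene called between mutants was Lrp1 (-0.47, adjusted p = 0.0157) in place of Procr (-0.83, 0.0628), and between mutants Pros1 was -0.06 and Lman1 0.

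Serpinb2, F5 and Plau in the mutants, and Tfpi2 in Brg1-/- cells, read close to background, which limits their measured changes.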

Other observations

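Of the 45 other pathway genes with a probe set, 24 did not pass the filter on low values, and the following were picked after their values were seen. The fibrinogen chains Fga, Fgb and Fgg, made mainly in liver, had highest intensities of 25.3, 4.2 and 30.5 and were at or below background in 10 of 10 arrays. Vwf, the von Willebrand factor of endothelium and platelets, had a highest intensity of 2. Plg, the substrate of the plasminogen activators, ranged from 7.9 to 78, with 5 of 10 arrays at or below background.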
